A study of Mus musculus with 1 sample.

Results

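The heat shock high alveolar macrophages (AMs) described here are the 150 cells, of 2055 in all (7.30%), with the highest score over 4 heat shock genes, Hspa1a, Hspa1b, Dnajb1 and Hsph1. The score of a cell is the mean, over these genes, of the z score across all cells of the natural log value that was deposited. AMs are the resident macrophages of the lung airspace, and the study examined what they need of the histone deacetylase HDAC3. The cells were sorted as CD45+CD11c+SiglecF+ from the lung of 1 WT mouse, aged 8-12 weeks, that carried the floxed Hdac3 allele (Hdac3 fl/fl) without Cre, so HDAC3 was intact, on a strain given as FVB/NJ backcrossed to C57BL/6. Per the study's methods, adult lungs were minced and digested with collagenase D and DNase before sorting. All cells went through that digestion, and its part in the results below was not tested. A single 10x Genomics 3′ library was made from 5000 sorted cells. With 1 library there is no replicate of the mouse or of the library, so no test was made and every interval given is a 95% interval that covers counting error only.

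The heat shock response is the switch by which cells raise molecular chaperones when proteins unfold. The transcription factor HSF1 binds repeats of the bases GAA and TTC, called heat shock elements, before the chaperone genes. Hspa1a and Hspa1b encode the inducible HSP70 proteins, Dnajb1 a J-domain protein that hands unfolded clients to HSP70, and Hsph1 the HSP110 protein that recharges HSP70 with nucleotide. Their constitutive relatives, such as Hspa8 and Hsp90ab1, are abundant in unstressed cells.

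The promoters of 3 scoring genes and of 3 chaperones that bear on the results are shown first, from RefSeq on GRCm38.p6, the build of mm10. Positions are counted from 0 at the annotated start site, and capitals mark a heat shock element. The first pair are the 150 bases before the start sites of Hspa1a, at chr17:34972157-34972306, and of Hspa1b, at chr17:34959239-34959388, both on the minus strand and in no annotated exon. They are shown because these genes carried most of the score.
Hspa1a: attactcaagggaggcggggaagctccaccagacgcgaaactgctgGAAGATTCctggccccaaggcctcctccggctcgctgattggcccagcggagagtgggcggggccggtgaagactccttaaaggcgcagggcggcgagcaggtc
Hspa1b: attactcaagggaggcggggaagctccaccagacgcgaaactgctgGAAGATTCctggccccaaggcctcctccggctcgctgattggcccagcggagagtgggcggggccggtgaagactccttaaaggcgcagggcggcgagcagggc
These windows were identical at 149 of 150 bases, and each held the element of 2 units, GAANNTTC, at position -104. The transcribed ends, where a 3′ library reads, were unlike. The last 300 bases of the Hspa1a and Hspa1b transcripts aligned with 49.8% identity and shared no stretch of 98 bases with each other or with another gene, whereas the whole transcripts were 85.3% identical.

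Short stretches of 30 bases around elements of 3 units, GAANNTTCNNGAA or TTCNNGAANNTTC, are shown for a scoring gene and for 3 chaperone genes that were not used for the score. They lie at chr5:149636287-149636316 (minus strand, from position 20) for Hsph1, chr1:55088053-55088082 (plus strand, from -95) for Hspe1, chr9:18292259-18292288 (plus strand, from -8) for Chordc1 and chr5:29735843-29735872 (plus strand, from -55) for Dnajb6. Each overlaps an exon in the GENCODE annotation, of Hsph1, Chordc1 and Dnajb6 themselves and, for the Hspe1 stretch, of an alternative Hspd1 transcript.
Hsph1: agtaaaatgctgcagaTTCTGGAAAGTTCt
Hspe1: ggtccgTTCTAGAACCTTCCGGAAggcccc
Chordc1: accgGAACGTTCGGGAAAATTCCTGAAgca
Dnajb6: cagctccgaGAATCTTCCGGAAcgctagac
The Hspe1 stretch also lies before Hspd1, which is transcribed the other way, so the genes of the mitochondrial chaperonin and its lid share it. The start sites of these genes lie 216 bases apart. Searched on both strands from 250 bases before to 50 bases after the start site, a 3-unit element was present in 179 of 27025 genes (0.662%), in 18 of the 2508 genes with at least 300 UMIs that had a window (0.718%), and in 4 of 28 such chaperone genes (14.3%). A 2-unit element was present in 17.0% of the 27025 genes, in 10 of the 28 chaperone genes (35.7%) and in 3 of the 4 scoring genes, whereas neither element was found in the window of Dnajb1. These matches are letters in a window and were not tested as binding sites.

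With the natural log undone and the added 1 taken off, every value was a whole multiple of 1 step in its cell. The unique molecular identifiers (UMIs, counted RNA molecules) could thus be recovered, 7222978 in all. The cells held 1143 to 8603 UMIs, with a median of 3278. Levels below are UMIs per 10000 UMIs, pooled over the cells of a group, with the 4 scoring genes left out of the total except for their own levels, and differences are the log2 ratio of the pooled levels, members over the other 1905 cells.

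The members were chosen on the 4 scoring genes, so their levels in these genes are a description of the choice. Hspa1b was detected in 115 of 150 members (76.7%) and 314 of 1905 other cells (16.5%), at 5.35 and 0.668 UMIs per 10000. Hspa1a was detected in 69.3% of members and 11.8% of other cells, at 4.16 and 0.394 per 10000. Dnajb1 was found in 51.3% and 15.2%, and Hsph1 in 52.0% and 10.7%. The inducible HSP70 genes thus made up most of the scoring UMIs, with 239 UMIs of Hspa1a and 308 of Hspa1b in members against 96 of Dnajb1 and 97 of Hsph1. Free RNA in the droplets also gives UMIs, and the library holds no cell type that should lack these genes, so that background was not estimated.

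The choice rested on few molecules per cell. A member held 2 to 22 scoring UMIs, with a median of 4, and another cell 0 to 7, with a median of 0. A single member carried 1 of the 4 genes, 84 carried 2 of them, 55 carried 3 and 10 carried all 4. Among the other cells, 1070 carried none, 650 carried 1, 175 carried 2 and 10 carried 3. Scores ran from 0.941 to 3.06 in members, with a median of 1.26, and no gap marked the limit. The last members scored 0.9432, 0.9424 and 0.9412 with 3, 5 and 2 scoring UMIs, and the first cells outside scored 0.9401, 0.9357 and 0.9318 with 4, 2 and 3.

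**Figure D1:**
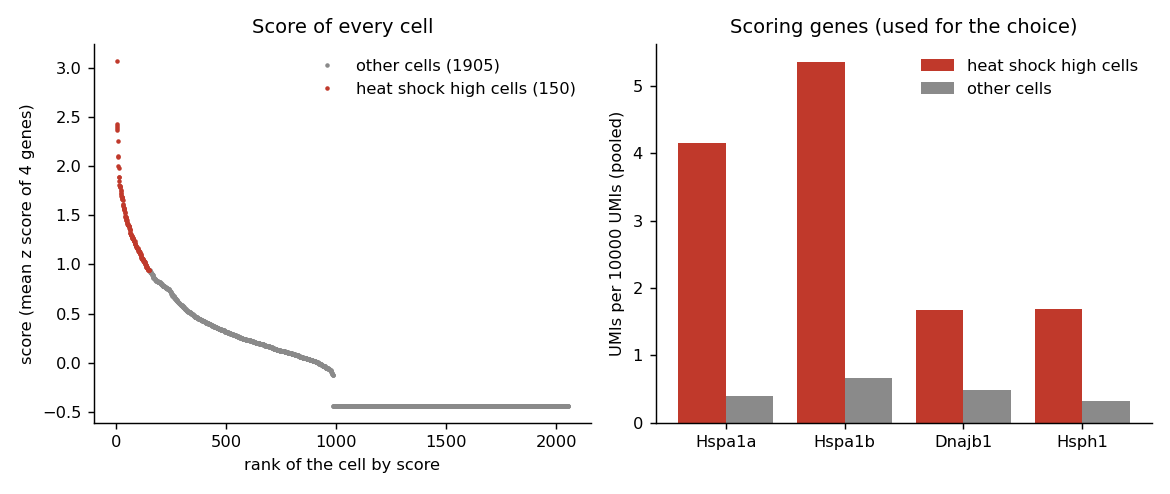
The left panel plots the score of each of the 2055 cells (mean z score of the 4 scoring genes) against its rank, with the 150 members in red, and the right panel plots the pooled level of each scoring gene, in UMIs per 10000 UMIs, in members (red) and other cells (grey). The score passes from members to other cells without a gap, at 0.9412 and 0.9401, and the flat stretch on the right is the 1070 cells with no UMI of the 4 genes.

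The label calls these cells heat shock high. Whether the 4 genes rise together in single cells could not be settled with counts this sparse. Across the 2055 cells of the library, which differ in depth, the natural log values of Hspa1a and Hspa1b had a Pearson correlation of 0.289. The other pairs lay between 0.0065 and 0.060, values that sparse counts do not let be read as a finding. Among the 1756 cells with at least 2000 UMIs, each thinned to 2000, Hspa1b was detected in 38.6% of the cells with Hspa1a and 12.3% of the cells without it. Dnajb1 was detected in 10.2% and 10.3% of the same cells, and Hsph1 in 12.5% and 8.29%. By the genes they carried, 103 members held an Hspa1 gene together with Dnajb1 or Hsph1, 34 held an Hspa1 gene alone and 13 held only Dnajb1 or Hsph1.

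Median depth and gene number were similar in members and other cells, while cells under 2000 UMIs were a smaller share of the members. Members held 1241 to 7903 UMIs (median 3462) and a median of 1525.5 genes, and other cells a median of 3256 UMIs and 1448 genes. Once thinned to 2000 UMIs, the 138 members that reached this depth held a median of 1040.5 genes and the 1618 other cells 1038. Below this depth, and left out, were 12 of the 150 members and 287 of the 1905 other cells. Cells with over 5% of UMIs from mitochondrial genes made up 21 of 150 members (14.0%) and 363 of 1905 other cells (19.1%).

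Chaperone genes outside the score were slightly higher in the members. The 64 other chaperone and co-chaperone genes in the data gave 85.0 UMIs per 10000 in members and 75.5 in other cells, a log2 ratio of 0.17 (0.13 to 0.21). Of these, 37 had at least 300 UMIs and were examined singly, 25 of them lay above 0 (67.6%, against 50.7% of all 3225 genes with at least 300 UMIs), and their median log2 ratio was 0.05 beside 0.0044 for all genes. None reached 1.5-fold, the size set for a call, which 24 of the 3225 genes reached upward (0.744%) and 62 downward (1.92%). At 1.2-fold, a size chosen after the values were seen, 8 of the 37 were higher and 1 was lower, against 11.1% and 11.7% of all genes.

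Per cell the difference was a shift with wide overlap. Other chaperone genes took 28.9 to 143 UMIs per 10000 in single members, with a median of 84.6, and 15.7 to 151 in single other cells, with a median of 73.9. Of the 150 members, 109 (72.7%) lay above the median of the other cells. The lowest and the highest single values both belonged to other cells.

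The HSP90 family and its partners, which mature kinases and nuclear receptors, gave the largest difference of the chaperone groups, 27.5 and 23.3 UMIs per 10000 and a log2 ratio of 0.24 (0.16 to 0.31). Hsp90aa1, the inducible HSP90, stood at 6.96 and 5.22 UMIs per 10000 (log2 ratio 0.42, 0.26 to 0.56). After thinning, Hsp90aa1 was detected in 71.7% of members (63.5% to 79.1%) and 60.0% of other cells (57.6% to 62.4%). Its constitutive relative Hsp90ab1 stood at 11.4 and 9.65 per 10000, a log2 ratio of 0.23 (0.12 to 0.35). Among partners, Cacybp had a log2 ratio of 0.43 (0.12 to 0.72) and Chordc1, whose promoter is shown above, 0.46 (-0.06 to 0.95) on 38 UMIs in members. The co-chaperones Ptges3, Fkbp4, Cdc37, Ppid and Ahsa1 lay between -0.11 and 0.09, so the partners of HSP90 did not share 1 direction.

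The HSP70 family without the scoring genes stood at 28.2 and 24.7 UMIs per 10000 (log2 ratio 0.19, 0.12 to 0.27). Hspa8, the constitutive HSP70, supplied most of these UMIs, at 18.8 and 15.9 per 10000 (log2 ratio 0.24, 0.15 to 0.33). St13, which assists HSP70, had a log2 ratio of 0.20 (-0.06 to 0.44), and mitochondrial Hspa9 one of 0.03 (-0.26 to 0.30). Bag3, an HSP70 partner that HSF1 is known to induce, had 20 and 190 UMIs and was too low to examine.

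The J-domain proteins as a group did not stand apart, at 14.3 and 13.8 UMIs per 10000 (log2 ratio 0.06, -0.05 to 0.16). Dnaja1, the cytosolic member best known as a partner of Hspa8, had the highest ratio of the 11 genes examined. It stood at 3.57 and 2.67 per 10000, a log2 ratio of 0.42 (0.20 to 0.63). At 1.2-fold, 2 of the 11 were higher (18.2%, against 11.1% of all genes) and 1 was lower. Dnajb6 carries a 3-unit element but had a log2 ratio of 0.04 (-0.27 to 0.33), and Dnajc19, of the mitochondrial import motor, one of -0.38 (-0.85 to 0.05).

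The chaperonins, the barrel-shaped folding chambers, gave 14.8 and 13.6 UMIs per 10000 (log2 ratio 0.13, 0.03 to 0.23), and within them the mitochondrial pair lay above most genes of the cytosolic ring. Hspd1 had a log2 ratio of 0.30 (0.01 to 0.58) and its lid Hspe1, from the shared promoter, one of 0.21 (0.02 to 0.38). The 7 cytosolic ring genes, Tcp1 and Cct2 to Cct8 as far as they were measured, ran from -0.06 for Cct5 to 0.27 for Cct2. Whether the pair and the ring differ was not tested. Small heat shock proteins were all but absent, with 9 UMIs in members and 97 in other cells over 5 genes, and Hspb1, a classic heat-induced gene, had 1 and 1.

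Reads of some of these genes could be split with near-identical copies. Of the 98-base stretches in the last 300 bases of Hspa8, 63.5% also occur in at least 1 other gene, most of all Gm15459. This share was 50.3% for Dnaja1, 27.9% for Hspd1 and 23.7% for Hsp90aa1. It was 4.93% for Hspe1 and 0% for the 4 scoring genes, Hsp90ab1 and Cacybp. The levels of the first 4 genes are uncertain to that extent, for members and other cells alike.

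Genes tied to HSF1 or known to be heat-inducible, beside the chaperones, stood at 66.2 and 57.0 UMIs per 10000 (log2 ratio 0.22, 0.17 to 0.26, and 0.11 when Hspa1b was left out of the score). Of 9 genes, 6 lay above 0 (66.7%, against 50.7% of all genes). Hmox1, the heme oxygenase induced by many stresses, was at 15.7 and 11.6 per 10000 (log2 ratio 0.44, 0.34 to 0.54). Dusp1, a phosphatase that ends MAP kinase signalling, had a log2 ratio of 0.42 (0.29 to 0.54) and Ier5 one of 0.27 (0.14 to 0.41). Ubb, a polyubiquitin gene, had a log2 ratio of -0.05 (-0.16 to 0.05). Sqstm1, Rgs2, Zfand2a and Tcp11l2 lay between -0.19 and 0.21. Dusp1 and Ier5 are immediate-early genes too and are counted in both lists.

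Stress programmes of other compartments did not stand apart as lists. Genes of endoplasmic reticulum (ER) stress, the unfolded protein response of the secretory pathway, gave 59.1 and 57.4 UMIs per 10000 (log2 ratio 0.04, -0.01 to 0.09). Hspa5, the HSP70 of the ER, had a log2 ratio of 0.13 (-0.01 to 0.26), Hsp90b1 one of 0.08 (-0.04 to 0.20) and Calr one of -0.13 (-0.33 to 0.06). Ddit3, a transcription factor of prolonged stress, was above 1.5-fold at 0.61 (0.09 to 1.09), but 1 cell held 10.3% of its 39 UMIs in members and after thinning it was detected in 8.70% of members and 9.27% of other cells. Creld2 was below at -0.66 (-1.39 to -0.01). Oxidative stress and metal genes stood at 451 and 447 per 10000 (log2 ratio 0.01, -0.0043 to 0.03). Fth1 and Ftl1 supplied 9567 and 8957 of this list's 25928 UMIs in members, at log2 ratios of -0.02 and 0.02. Of its 17 genes examined, 11 lay above 0 (64.7%, against 50.7% of all genes), among them Hmox1, described above. Proteasome subunits stood at 44.3 and 45.4 (log2 ratio -0.04, -0.09 to 0.02).

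**Figure D2:**
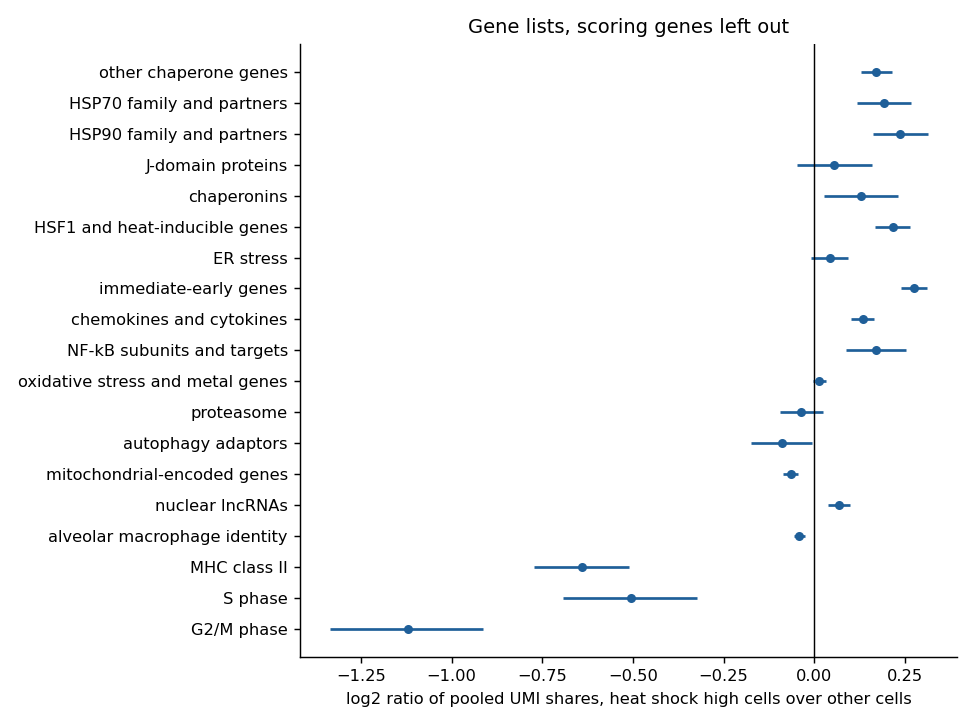
Each point is the log2 ratio of the pooled level of a gene list, members over other cells, with scoring genes left out, and each bar is its 95% counting interval. Other chaperones lie at 0.17 and immediate-early genes at 0.28, ER stress and oxidative stress near 0, and MHC class II and cell cycle lists at -0.51 or below.

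Immediate-early genes, the transcription factors and feedback genes that cells switch on within minutes of a stimulus, had a larger ratio than the chaperones. They stood at 126 UMIs per 10000 in members and 104 in other cells, a log2 ratio of 0.28 (0.24 to 0.31). Of 29 genes, 25 lay above 0 (86.2%, against 50.7% of all genes). Past 1.5-fold upward were 2 of the 29, against 0.744% of all genes. Egr1, a zinc finger factor, was the highest of all 3225 genes at 4.39 and 2.22 UMIs per 10000 (log2 ratio 0.98, 0.78 to 1.18), and after thinning it was detected in 38.4% of members (30.3% to 47.1%) and 20.3% of other cells (18.4% to 22.4%). Jun was at 1.43 and 0.877 (log2 ratio 0.70, 0.35 to 1.04), with 13.4% of its UMIs in members from 1 cell. Its AP-1 partners Fos, at 11.1 and 8.07 per 10000, and Junb had log2 ratios of 0.46 (0.34 to 0.58) and 0.34 (0.21 to 0.47).

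Other genes of the list, chosen after their values were seen, ran from near 0 to 0.38. Zfp36, which destabilises cytokine mRNA, had a log2 ratio of 0.38 (0.21 to 0.56), Btg2 one of 0.34 (0.16 to 0.51) and the nuclear receptor Nr4a1 one of 0.28 (0.12 to 0.44). Btg1, the most abundant of the list, had -0.01 (-0.14 to 0.11) and Mcl1 0.04 (-0.11 to 0.18). In single cells the list took 36.1 to 358 UMIs per 10000 in members (median 121.7) and 7.37 to 377 in other cells (median 99.3), and 106 of 150 members (70.7%) lay above the median of the other cells.

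**Figure D3:**
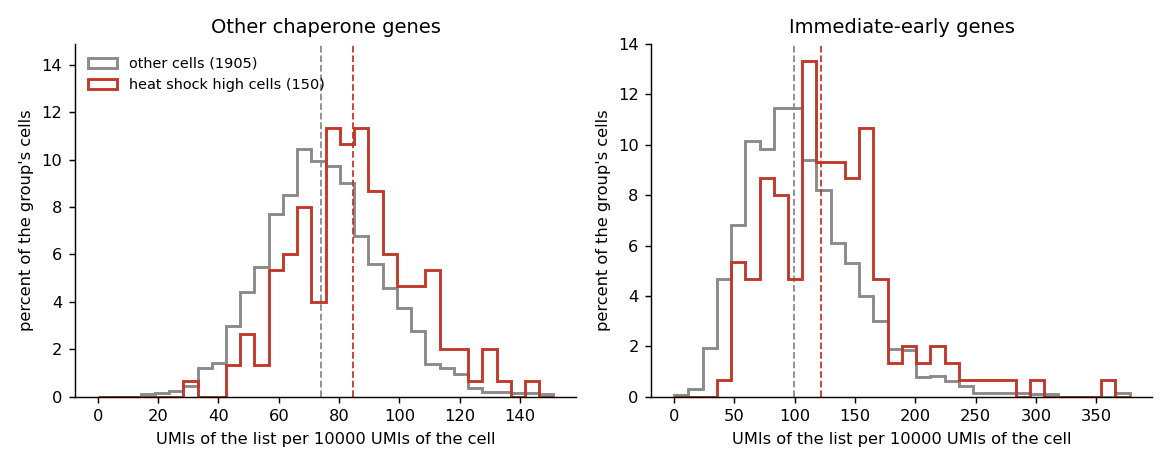
The histograms give the percent of each group's cells by their UMIs of other chaperone genes (left) and immediate-early genes (right) per 10000 UMIs of the cell, for the 150 members in red and the 1905 other cells in grey, with dashed lines at the medians. Members are shifted to the right in both panels, with medians of 84.6 against 73.9 and 121.7 against 99.3, and the groups overlap over most of their range.

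Chemokines and cytokines gave 153 and 139 UMIs per 10000 (log2 ratio 0.13, 0.10 to 0.16). Cxcl2, which recruits neutrophils, accounted for most of that difference at 19.7 and 11.9 per 10000 (log2 ratio 0.73, 0.63 to 0.82), with 11.7% of its UMIs in members from 1 cell. The log2 ratio of Cxcl2 was 1.202 with 75 members and 0.43 without the immediate-early set of 150 cells described below, and the members of ranks 101 to 150 stood at 9.61 per 10000, under the other cells. Ccl3 had a log2 ratio of 0.42 (0.22 to 0.62), Ccl4 one of -0.50 (-0.97 to -0.07), and Ccl6, the most abundant chemokine here, one of 0.05 (0.01 to 0.09). NF-kB subunits and targets stood at 22.3 and 19.8 (log2 ratio 0.17, 0.09 to 0.25), with 0.45 for 75 members and 0.052 without that immediate-early set. The list's Nfkbiz was past 1.5-fold at 0.81 (0.46 to 1.14), with 12.0% of its UMIs from 1 cell, while the feedback inhibitor Nfkbia had 0.26 (0.07 to 0.44).

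The genes with the highest ratios were few and small in size. Among genes of which no cell held over 10% of the UMIs, Egr1 was followed by Areg, an epidermal growth factor receptor ligand, at 1.2 and 0.611 UMIs per 10000 (log2 ratio 0.98, 0.59 to 1.35). Phlda1, an early response gene of growth signalling, was at 6.02 and 3.63 (log2 ratio 0.73, 0.56 to 0.89) and was detected after thinning in 55.1% of members (46.4% to 63.5%) and 41.2% of other cells (38.8% to 43.6%). The other 17 of the 20 highest, Yrdc, Dgat2, Aimp1, Lilr4b, Arhgap26, Gnptab, Fbxo30, Rassf1, Mrpl38, Sp110, Rragc, Prkar2a, Usp1, B4galt5, Dync1li1, Zfp655 and Mccc2, ranged from 0.58 to 0.76 on 35 to 86 UMIs in members. None of the 17 is a chaperone, and at these counts their intervals reach from as low as 0.03 to as high as 1.15 for Yrdc and 1.23 for Dgat2.

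**Figure D4:**
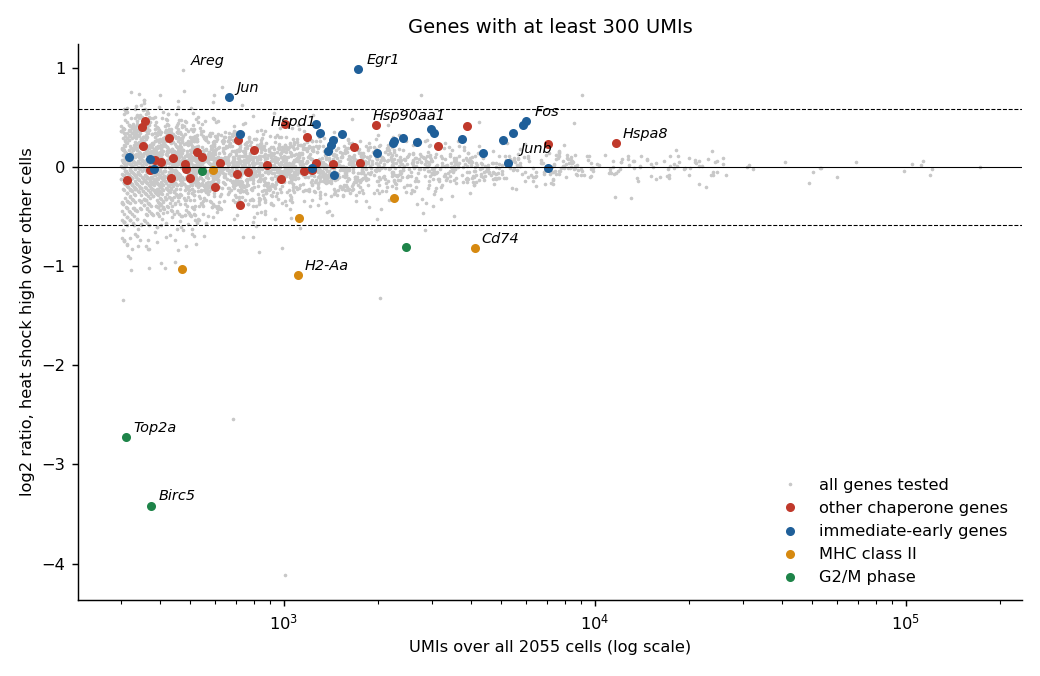
Each point is 1 of the 3225 genes with at least 300 UMIs, by its UMIs over all cells (log scale) and its log2 ratio, members over other cells, with dashed lines at 1.5-fold. Chaperone genes (red) lie between -0.38 and 0.46, Egr1 at 0.98 is the highest gene, and Birc5 and Top2a, at -3.42 and -2.73, are among the lowest.

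Cell cycle genes were the lowest in the members, among genes of which no cell held over 10% of the UMIs. Birc5, an inhibitor of apoptosis that acts in mitosis, had 3 UMIs in members and 371 in other cells (log2 ratio -3.42, -5.70 to -1.86), and Top2a, the topoisomerase of dividing cells, had 4 and 306 (log2 ratio -2.73, -4.61 to -1.35). The proliferation gene 2810417H13Rik had 10 and 675 UMIs, and the tubulin regulator Stmn1 68 and 1963 (log2 ratio -1.32, -1.69 to -0.97). As lists, G2/M genes stood at 3.38 and 7.34 UMIs per 10000 (log2 ratio -1.12, -1.33 to -0.91) and S phase genes at 4.46 and 6.33 (log2 ratio -0.51, -0.69 to -0.32). Of the 10 lowest genes, Dnmt1 and Dut also serve DNA replication, at -1.04 and -1.02, and the rest, Itch, Cbx1, Ap1s1 and Ifi27l2a, ran from -1.34 to -0.96. When the 150 cells with the highest score over 7 G2/M genes were picked in the same way, 3 members (2.00%, 0.414% to 5.73%) were among them, against 7.72% of other cells. With those 150 cells left out of both groups, a step added after the values were seen, the log2 ratio was -0.16 for the G2/M list, -0.13 for the S phase list, -0.70 for Top2a and -0.35 for Stmn1. Birc5 stood at -1.09 with members chosen by the summed share of the 4 genes. The G2/M level was highest, at 9.31 UMIs per 10000, in the cells of score ranks 601 to 985, whose median of 4281 UMIs was also the highest of the rank groups, and the part of depth in this difference was not tested.

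MHC class II genes, which present antigen to T cells, stood at 8.91 and 13.9 UMIs per 10000 (log2 ratio -0.64, -0.77 to -0.51). All 6 genes examined were below 0, whereas 50.7% of all genes were above 0. H2-Aa had a log2 ratio of -1.10 (-1.57 to -0.66), H2-Eb1 one of -1.03 (-1.78 to -0.37) and the invariant chain Cd74 one of -0.82 (-1.04 to -0.61). The share of cells with a UMI differed less. After thinning, H2-Aa was detected in 10.9% of members (6.21% to 17.3%) and 12.9% of other cells (11.3% to 14.6%), and Cd74 in 22.5% and 25.2%. Single cells held 11.2% of the UMIs of H2-Aa and 16.0% of those of H2-Eb1 in the other cells. Of the 150 cells with the highest score over 4 class II genes, 10 were members. That is 6.67% of members (3.24% to 11.9%) against 7.35% of other cells. With the 150 cells of the highest class II score left out of both groups, a step added after the values were seen, the list stood at -0.37 and H2-Eb1 at 0.08, and with 75 members the list stood at -0.11 and Cd74 at -0.08.

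The members carried the genes of mature AMs at levels like those of the other cells. The 39 AM identity genes in the data stood at 604 and 622 UMIs per 10000 (log2 ratio -0.04, -0.06 to -0.03). Of 38 genes, 20 lay above 0 (52.6%, against 50.7% of all genes) and none was at 1.5-fold. Chil3 was at 132 and 136 per 10000, Ear2 at 32.1 and 33.4, and Lpl at 19.0 and 18.2. Plet1 was at 12.7 and 10.9 per 10000 and Pparg, the nuclear receptor that directs AM maturation, at 1.48 and 1.15 (log2 ratio 0.37, 0.03 to 0.69). Car4 had a log2 ratio of 0.46 (0.31 to 0.60). Other genes of the list went the other way, with Fabp4 at -0.32 and Bhlhe41 at -0.30. At 1.2-fold, 2 genes of the list were higher and 2 were lower. Mitochondrially encoded genes were at 355 and 371 (log2 ratio -0.06, -0.09 to -0.04), a difference that changed direction with how the members were chosen.

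Markers of other cell types were low in both groups. Dendritic cell markers gave 1 UMI in members and 35 in other cells over 3 listed genes, neutrophil markers 35 and 501 over 4, and stromal and endothelial markers 0 and 25 over 4. Monocyte and interstitial macrophage markers stood at 4.14 and 4.11 per 10000 (log2 ratio 0.01, -0.19 to 0.20), most of them UMIs of Fn1, at 187 and 2108, with Apoe at 44 and 391 and Ccr2 at 0 and 31. Epithelial markers stood at 3.67 and 3.54 per 10000. The antibody joining chain Jchain had 5 and 1001 UMIs, and 1 other cell held 93.9% of the latter.

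For other chaperone genes and Hsp90aa1 the levels between the members and the cells without a scoring UMI were intermediate, with no step at the limit of rank 150. Other chaperone genes stood at 87.9 UMIs per 10000 (83.5 to 92.4) in ranks 1 to 50, 85.3 in ranks 51 to 100 and 82.0 in ranks 101 to 150. They stood at 80.3 in ranks 151 to 300, 75.5 in ranks 301 to 600, 76.9 in ranks 601 to 985, and 73.9 (73.0 to 74.8) in the 1070 cells without a scoring UMI. Hsp90aa1 was at 6.93 (5.75 to 8.28), 7.11 and 6.83 in the 3 steps within the members and at 6.36 just outside them, and then stepped down to 4.72 (4.49 to 4.96). Egr1 had another shape. It was at 6.93 (5.75 to 8.28) in ranks 1 to 50, at 3.53 and 2.99 in the next steps, and at 2.08 (1.93 to 2.24) in cells without a scoring UMI. Immediate-early genes as a list likewise stood at 151 in ranks 1 to 50 and between 101 and 118 in all later steps. Other differences did not follow the rank. Cxcl2 was at 30.4 in ranks 1 to 50, 19.8 in ranks 51 to 100, 9.61 in ranks 101 to 150 and 17.5 in ranks 151 to 300, and MHC class II genes were at 9.05, 12.3, 4.96 and 8.45 in the same steps and at 17.0 in the cells without a scoring UMI.

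**Figure D5:**
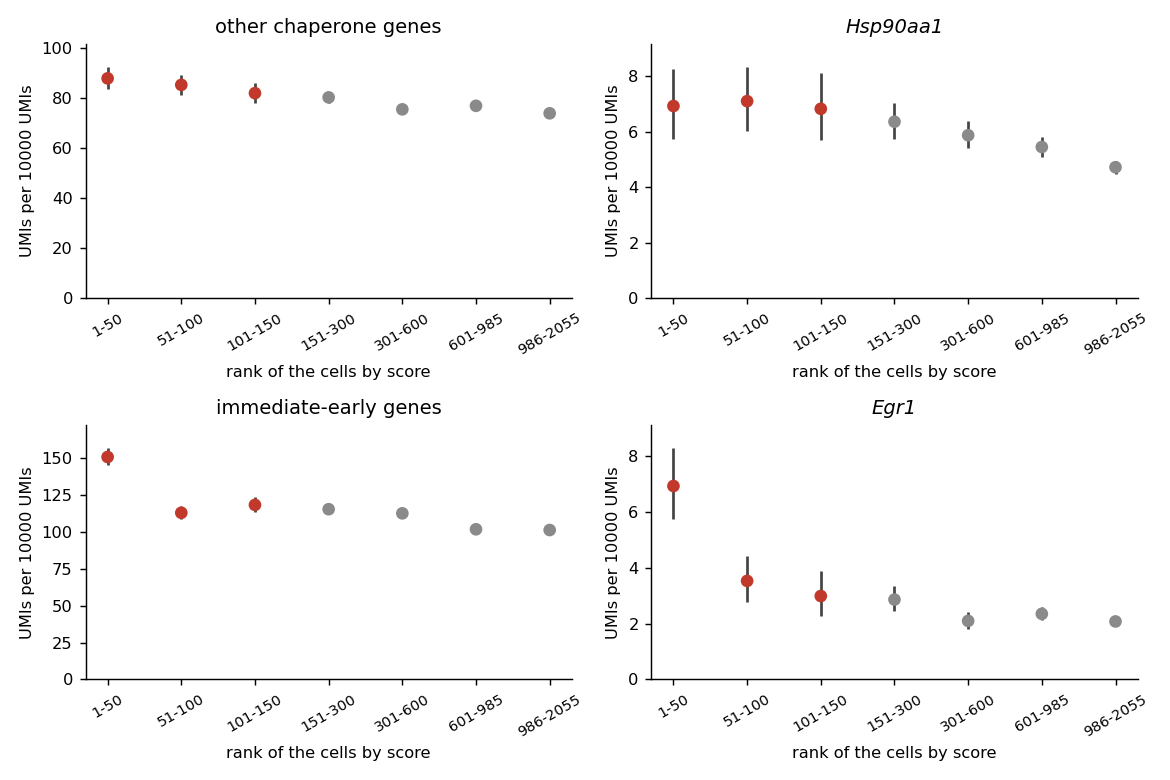
Each panel gives the pooled level, in UMIs per 10000 UMIs, of a list or gene in 7 groups of cells ordered by score, members in red and other cells in grey, with 95% counting intervals. Other chaperones and Hsp90aa1 are higher in each of the 3 groups of members than in the cells without a scoring UMI, at 73.9 and 4.72, while immediate-early genes and Egr1 are high in ranks 1 to 50, at 151 and 6.93, and lower in every later group.

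The members were not alike in the genes that chose them, and they are described here by the scoring genes they carried. Other chaperone genes stood at 86.0 UMIs per 10000 in the 103 members with an Hspa1 gene and Dnajb1 or Hsph1 (log2 ratio to other cells 0.19, 0.14 to 0.24) and at 85.6 in the 34 with Hspa1 genes alone (0.18, 0.09 to 0.27). They stood at 72.0 in the 13 with Dnajb1 or Hsph1 alone (-0.07, -0.25 to 0.10), which is no higher than the level of the other cells. In the 10 members with all 4 genes they were at 89.7 (0.25, 0.12 to 0.38). The log2 ratio of immediate-early genes was 0.27 (0.23 to 0.31) in the 103 members, 0.42 (0.34 to 0.49) in the 34 and -0.13 (-0.28 to 0.02) in the 13. Whether these kinds of member differ from one another was not tested.

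Cell sets scored in the same way from other genes met the members to different degrees. Of the 150 cells with the highest score over 6 other chaperones (Hspa8, Hsp90aa1, Hsp90ab1, Hspd1, Hspe1 and Dnaja1), 30 were members, which is 20.0% of each set (13.9% to 27.3%) against 6.30% of other cells. Of the 150 highest over 7 immediate-early genes, 28 were members, 18.7% of each set (12.8% to 25.8%) against 6.40% of other cells. For the chemokine and Tnf set it was 19 (12.7% against 6.88% of other cells) and for metallothioneins 14 (9.33% against 7.14%). For the mitochondrial share it was 8 (5.33% against 7.45%). With the immediate-early set left out of both groups, an alternative added after the values were seen, the other chaperones stood at a log2 ratio of 0.16 and the immediate-early list stood at 0.19.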

How the data were processed

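AMs of 1 WT mouse were profiled with 10x Genomics 3′ chemistry (v2). Per the study's methods, reads were aligned to mm10 with Cell Ranger 2.1 and processed in Seurat. The authors deposited natural log values, made by scaling each cell to 10000 UMIs and adding 1 before the log, and scaled score values from a regression on depth and mitochondrial content. Methods state that cells over 5% mitochondrial content and ribosomal protein genes were removed, yet 384 such cells and 100 genes named Rpl or Rps are in the deposited values.

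UMIs were recovered by undoing the natural log and the added 1. Each result was then taken as a whole multiple of the step of its cell (100% of values whole within 0.01). Members were the 150 cells with the highest score. The members and the gene lists were chosen with earlier results of these data known. UMIs were pooled by group, 574435 in members and 6646558 in other cells without the scoring genes, and ratios were given exact conditional binomial intervals, levels exact Poisson intervals and shares of cells exact Clopper-Pearson intervals, all at 95% and for counting error only. Genes needed 300 UMIs over all cells, and a call 1.5-fold. Shares were compared after thinning cells to 2000 UMIs. No doublet caller was run, since the methods exclude cells with many genes as likely doublets (the highest here had 2495). The text names the scoring genes, the 20 highest and 10 lowest genes of which no cell held over 10% of the UMIs, and from each list the genes past 1.5-fold or otherwise its most abundant genes, with other chaperones and heat-inducible genes more fully; 1 gene within this rule is not reported here. Further genes were picked after their values were seen: Bag3, Hspb1, Hspa5, Hsp90b1, Calr, Ccl3, Ccl4, Ccl6, Nfkbia, Fos, Junb, Zfp36, Btg1, Btg2, Nr4a1, Mcl1, Ear2, Lpl, Plet1, Pparg, Car4, Fabp4 and Bhlhe41. Heat shock elements were searched in RefSeq promoter windows of GRCm38.p6, and gene models came from GENCODE M21. Ratios and intervals were tested on simulated counts that varied by counting error alone, so variation between cells was not part of that check. Python 3.11.15, numpy 2.4.6, scipy 1.17.1 and pandas 2.3.3 were used. Alternatives changed the score, the number of members, the cells kept, the averaging and the UMI minimum.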

Additional observations from a re-analysis of the deposited data

How the results depend on the processing

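No paired analysis was possible because the data hold 1 sample. Each result was recomputed with other members, cells, averaging or filters, and for the 7 lists and the counts of genes in the next paragraphs each value that left the counting interval of the reported value or, for a count, differed by over 1.5 times is printed. Other lists and single genes moved too and are given by their range. The direction held under every alternative for other chaperones, immediate-early genes, chemokines and cytokines, ER stress and AM identity, and for 51 of 56 genes followed. The members themselves changed more: scoring cells thinned to 2000 UMIs kept 91 of 150, the summed share of the 4 genes kept 117, leaving out 1 scoring gene kept 91 to 107, and the deposited scaled scores, an alternative added after the data were seen, kept 141.

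Other chaperones had a log2 ratio of 0.13 with the score made without Hspa1b. Immediate-early genes had 0.38 by summed share, 0.37 with 75 members, 0.23 with 300 members, 0.19 without Hspa1b in the score, 0.33 without Hsph1 and 0.19 with the 150 cells of the highest immediate-early score left out (added after the data were seen, like the G2/M and MHC class II sets). Chemokines and cytokines had 0.21 with members scored on thinned cells, 0.20 with 75 members, 0.20 without cells over 5% mitochondrial, 0.25 without Hspa1a in the score, 0.22 without Hspa1b, 0.10 without the immediate-early set and 0.098 without the MHC class II set. ER stress had 0.097 with 75 members and 0.094 without cells over 5% mitochondrial. Oxidative stress and metal genes had 0.039 with 300 members, 0.046 without Hsph1 and -0.021 without the immediate-early set. The mitochondrial-encoded genes turned to 0.0054 by summed share and 0.016 without Hspa1b, and stood at -0.0013 with thinned scoring, -0.0051 with 75 members, -0.038 with 300 members, -0.023 without cells over 5% mitochondrial, -0.093 without the 2% of cells with most UMIs, -0.12 as a mean over cells, -0.042 without Dnajb1, -0.13 without Hsph1 and -0.037 without the immediate-early set. AM identity had -0.057 by summed share, -0.058 with 75 members, -0.057 as a mean over cells, -0.074 without Hspa1a, -0.0100 without Hspa1b and -0.068 without the G2/M set. The cause of these changes was not tested.

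Counts of genes at 1.5-fold depended on how few UMIs a gene needed. Against 24 higher, there were 38 by summed share, 91 with 75 members, 8 with 300 members, 43 as a mean over cells, 13 with 10 UMIs in each 1000000 added to both levels, 188 at 100 UMIs, 3 at 1000 UMIs and 1337 with no minimum. Against 62 lower, there were 162 with 75 members, 22 with 300, 37 with that addition, 433 at 100 UMIs, 7 at 1000 UMIs, 1298 with no minimum and 95 without the immediate-early set. Other lists kept their direction but ranged from 0.11 to 0.29 for HSF1 and heat-inducible genes, 0.052 to 0.45 for NF-kB subunits and targets, -0.85 to -0.11 for MHC class II, -0.57 to -0.13 for S phase and -1.26 to -0.16 for G2/M phase. Of the 56 genes followed, 35 left their interval under at least 1 alternative, Cxcl2 (0.43 to 1.202) under 10 of 15. Single genes that reversed were Dgat2 (-0.23 without Hspa1b), Aimp1 (-0.11 with thinned scoring), Prkar2a (-0.00016 without Hsph1), Pparg (-0.013 without Hsph1) and H2-Eb1 (0.079 without the MHC class II set). The median of 3462 UMIs per member ranged from 3252 to 3766. Depth limits the choice of members, which rested on a median of 4 UMIs a cell, and most genes examined had under 100 UMIs in members.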
